A study of Homo sapiens with 6 samples.

Results

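The subunit genes of the glutamate and GABA receptors were followed in the HEK293T cell line, which was derived from human embryonic kidney and expresses the large T antigen of SV40. RNA was sequenced from 3 libraries of untreated cells and from 3 libraries of cells kept for 1 day with valproic acid (VPA) at 1 mM, an anticonvulsant drug that blocks histone deacetylases. Both groups were wild-type HEK293T cells, and the comparison asks how VPA changed gene expression. The members were taken by symbol, and 47 of the 47470 listed genes matched. They comprise 18 ionotropic glutamate receptor genes (AMPA, kainate, NMDA and delta), 8 metabotropic glutamate receptor genes, 19 GABA-A receptor genes including the rho subunits, and 2 GABA-B receptor genes.

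Ionotropic receptors are ion channels built from several subunits, so the subunits that a cell makes decide which receptors it can assemble. AMPA, kainate and NMDA receptors let cations in when glutamate binds and carry fast excitation in the brain, while GABA-A receptors are chloride channels that carry fast inhibition. Metabotropic glutamate receptors and the GABA-B receptor act more slowly through G proteins. HEK293T cells are not neurons, and such cells are often used as a host in which cloned receptor subunits are expressed.

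Counts on genes were between 18622267 and 18828495 per library, and a count of 0 allows up to 0.161 CPM (counts scaled to a total of 1e6) in the shallowest library. Between libraries of a group the chi-square per gene was 1.57 to 4.47, which exceeds counting error, and each was counted as 1 replicate. Nothing in the labels says that they came from separate cultures, so the p-values measure the spread between libraries, which may be technical. Of 10 genes that mark embryonic kidney cells or HEK293T cells, 9 had at least 10 counts in every library, with PAX8 the exception. A gene is called up-regulated or down-regulated here past thresholds of 0.05 on the adjusted p and of 1 on the size of the log2 fold change. Of the 9 kidney and HEK293T genes tested 3 (PAX2, KRT8 and NEFL) were up-regulated, where 12.0% of all tested genes were. Of 14 neuronal marker genes 6 were tested and 5 up-regulated, and the list summed to 434 to 499 normalized counts without and 1014 to 1069 with VPA. SLC17A6 was at 0, and SYP lies on chromosome X, where no gene had a count. Of 5 astrocyte markers 4 were tested and 3 (GFAP, AQP4 and ALDH1L1) up-regulated, yet the list summed to 1263 to 1568 without and 1109 to 1222 with VPA. Most counts of that list were on SLC1A3, which was lower (log2 fold change -0.46, edgeR adjusted p = 1.42e-05). Of 5 oligodendrocyte markers 2 were tested and 1 up-regulated, with sums of 186 to 213 and 332 to 358, and SOX10 was at 0. The part of these markers in the results below was not tested. In bulk RNA, more cells with a transcript and more transcript per cell cannot be told apart.

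Not all members could be measured. Of the 47 genes 13 had no count in any library. GRIA3, GABRA3, GABRE and GABRQ lie on chromosome X, where none of the 1437 listed genes had a count, so nothing can be read from their zeros. The other 9 genes at 0, which were not detected at this depth, included GABRA2, GABRA4, GABRA5, GABRA6, GABRG1, GABRR3, GRIN3A and GRM6. A further 15 members had counts but fell below the filter on low counts, and 19 were tested. Because that filter is passed by a gene that is high in 1 condition alone, the counts over tested members below are a description.

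RefSeq promoter windows show how differently these genes begin, and those shown belong to the members with the steepest rises, to the most abundant member and to a member that did not pass the test. Each runs 5′ to 3′ on the strand of the gene over the 250 bases before the start of a reference transcript (build GRCh38.p14), and capitals mark CpG dinucleotides. For GRM4 and GABBR1 the annotated gene reaches further upstream, so that the window lies inside it. They lie at chr7:86643659-86643908 for GRM3 (plus strand), chr6:34146088-34146337 for GRM4 (minus), chr1:37034516-37034765 for GRIK3 (minus), chr6:101393458-101393707 for GRIK2 (plus), chr6:29628014-29628263 for GABBR1 (minus) and chr3:51706818-51707067 for GRM2 (plus).
GRM3: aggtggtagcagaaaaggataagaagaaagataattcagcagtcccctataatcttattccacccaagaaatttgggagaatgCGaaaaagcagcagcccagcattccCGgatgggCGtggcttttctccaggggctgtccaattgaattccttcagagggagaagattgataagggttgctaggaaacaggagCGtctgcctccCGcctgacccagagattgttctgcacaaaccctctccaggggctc
GRM4: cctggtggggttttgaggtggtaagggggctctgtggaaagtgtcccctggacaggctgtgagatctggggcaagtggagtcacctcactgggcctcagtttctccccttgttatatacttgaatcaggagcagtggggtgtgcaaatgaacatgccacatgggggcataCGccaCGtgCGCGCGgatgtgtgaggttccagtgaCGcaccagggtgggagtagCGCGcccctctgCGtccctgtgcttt
GRIK3: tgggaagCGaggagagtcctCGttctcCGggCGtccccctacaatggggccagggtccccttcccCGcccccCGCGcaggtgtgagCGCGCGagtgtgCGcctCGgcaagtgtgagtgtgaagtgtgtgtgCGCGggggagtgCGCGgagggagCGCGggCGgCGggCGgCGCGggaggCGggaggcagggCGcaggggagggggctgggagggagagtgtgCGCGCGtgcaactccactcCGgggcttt
GRIK2: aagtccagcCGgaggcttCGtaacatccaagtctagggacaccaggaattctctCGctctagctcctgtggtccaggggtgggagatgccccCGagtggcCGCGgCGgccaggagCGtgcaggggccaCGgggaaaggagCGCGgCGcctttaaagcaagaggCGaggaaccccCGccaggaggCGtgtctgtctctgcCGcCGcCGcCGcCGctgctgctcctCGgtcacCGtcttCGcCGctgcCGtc
GABBR1: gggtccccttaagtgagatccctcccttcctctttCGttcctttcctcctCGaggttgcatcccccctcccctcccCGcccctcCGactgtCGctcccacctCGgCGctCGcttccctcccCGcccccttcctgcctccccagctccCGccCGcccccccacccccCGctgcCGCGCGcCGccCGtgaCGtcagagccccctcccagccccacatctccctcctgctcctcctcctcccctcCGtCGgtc
GRM2: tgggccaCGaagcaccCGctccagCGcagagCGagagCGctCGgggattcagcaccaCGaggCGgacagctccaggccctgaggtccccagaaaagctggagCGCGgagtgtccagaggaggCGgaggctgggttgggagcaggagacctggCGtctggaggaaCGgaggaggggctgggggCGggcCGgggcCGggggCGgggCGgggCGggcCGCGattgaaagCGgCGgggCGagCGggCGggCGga

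A promoter was given for 34 of the 47 members, with a median of 12.5 CpG against 11 over all 27305 promoters. The windows of the strongly raised genes were unlike each other, with 5 CpG in GRM3, 9 in GRM4, 25 in GRIK2, 29 in GRIK3 and 44 in GRIK4. GRM2, which did not pass the test, had 27 and GABBR1 had 20. Both strands were searched for 4 motifs. The GC box GGGCGG was found in 17 of the 34 members and in 42.3% of all promoters. The cAMP response element TGACGTCA was found in GABBR1 alone among the 34 and in 1.77% of all promoters, and it can be read in the window above. The left part of the RE1 element that the repressor REST binds, TTCAGCACC, was found in GRM2 alone and in 0.300% of all promoters. Its right part, GGACAGNGC, was found in 2 of the 34, GABRA6 and GABRR1, and in 1.88% of all promoters. These matches describe letters in the window and nothing about binding.

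Most receptor genes that could be tested were higher in VPA-treated cells, and none was lower. In all, 13 of the 19 tested members were up-regulated and 0 down-regulated by edgeR's quasi-likelihood test. Over all 15298 tested genes 12.0% were up-regulated and 0.503% down-regulated. At the adjusted p alone 17 members were higher and 0 lower, where 32.9% of all tested genes were higher and 30.0% lower, and 0 members were lower at an unadjusted p under 0.05. DESeq2 likewise called 0 members down-regulated. The median log2 fold change of the tested members was 1.60, against 0.01 over all tested genes, and in 18 of the 19 every VPA-treated library lay above every untreated one, as did 34.8% of all tested genes.

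Up-regulation was more frequent in genes with few counts, and most members have few. Of the 13 tested members with a mean under 50 normalized counts 10 were up-regulated, beside 29.4% of all tested genes in that range. Between 50 and 200 it was 3 of 4 members beside 24.3%, and between 200 and 1000 it was 0 of 2 members, GABBR1 and GRID1, beside 5.78%. With a filter on the mean of all 6 libraries 12 of 18 members were up-regulated. That filter does not use the group labels, but high VPA-treated libraries alone can carry a gene past it. GRM3, for example, passed it with 6 counts in all untreated and 81 in all VPA-treated libraries. With at least 10 counts in every library 5 of 10 members were up-regulated, among them GABBR2, GABRD, GRIK4 and GRIN2C. The share of all genes up-regulated under these filters was not worked out. At the adjusted p alone the filter on the mean gave 16 higher members, beside 4947 of 15090 genes tested. Requiring 10 counts in every library gave 9 higher members, beside 4489 of 13882 genes.

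**Figure D1:**
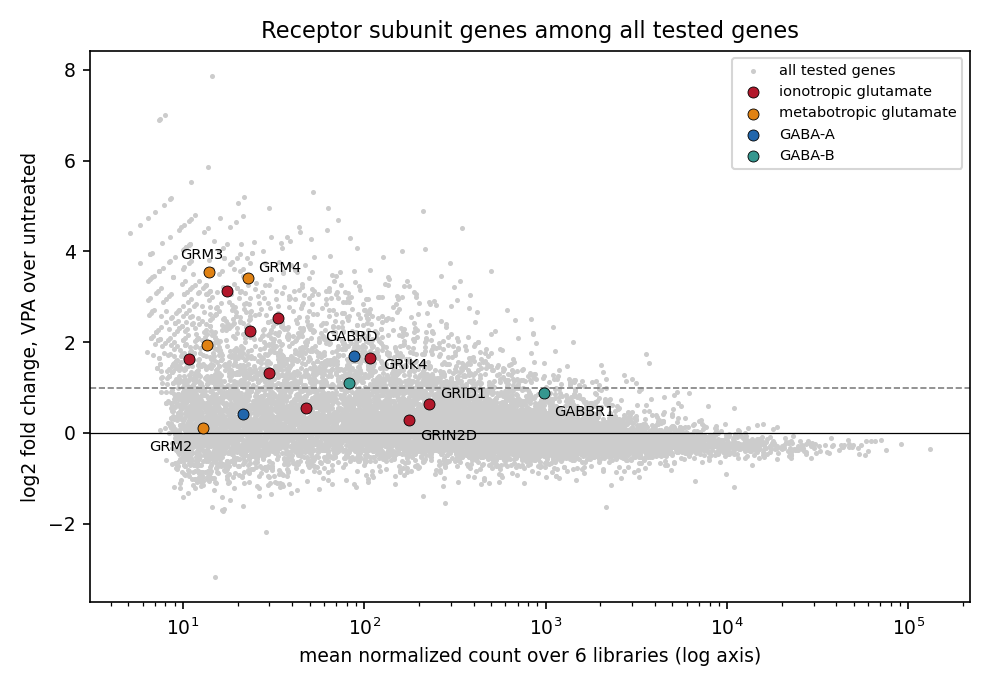
Log2 fold change of VPA-treated over untreated cells against the mean normalized count over 6 libraries (log axis) for all 15298 tested genes in grey and for 17 of the 19 tested receptor genes coloured by class, with a dashed line at a log2 fold change of 1. Most receptor genes lie at the low-count end and 11 lie above the dashed line, while GABBR1, the member with the most counts, lies just below it.

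Summed over the 47 genes, receptor counts were 72.7, 63.6 and 67.0 CPM in untreated cells and 149, 145 and 147 CPM in VPA-treated cells. The number of members with at least 1 count was 22, 19 and 24 in the untreated and 28, 32 and 30 in the VPA-treated libraries. Every VPA-treated library was thus above every untreated one in both measures. Over all listed genes, 20916, 20782 and 20719 had a count in the untreated and 22425, 22279 and 22335 in the VPA-treated libraries, also without overlap. Ionotropic glutamate receptor genes summed to 494 ± 19.5 normalized counts without and 953 ± 39.6 with VPA, a ratio of 1.93 (mean ± SD of 3 libraries). The metabotropic glutamate receptor genes went from 25.4 ± 6.97 to 111 ± 4.96, a ratio of 4.37. The GABA-A genes went from 67.1 ± 6.49 to 182 ± 5.96, a ratio of 2.71, and the GABA-B genes from 743 ± 79.5 to 1385 ± 35.9, a ratio of 1.86. Glutamate receptor genes held 39.1% ± 2.36 of all receptor counts without and 40.4% ± 1.12 with VPA, a difference smaller than the spread between libraries. The share of the metabotropic glutamate receptor genes alone was 1.42% to 2.38% in the untreated and 3.95% to 4.36% in the VPA-treated libraries, without overlap.

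**Figure D2:**
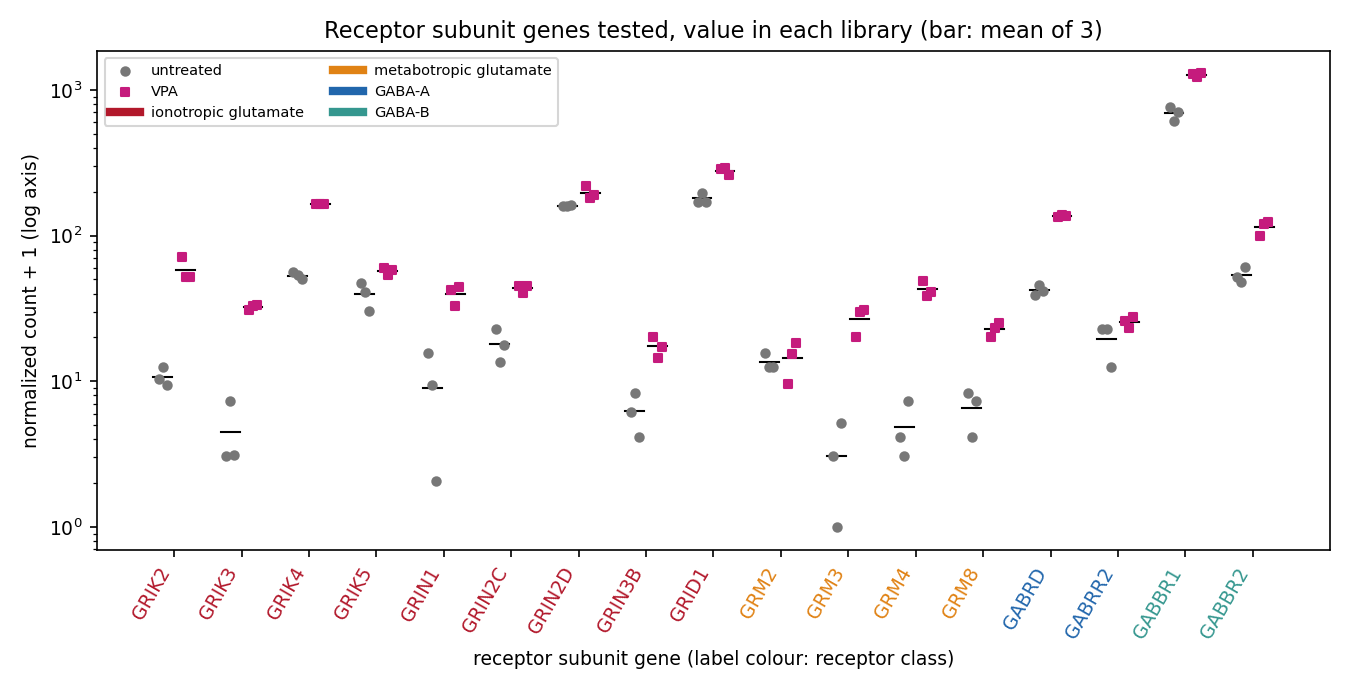
Normalized count + 1 on a log axis in each untreated (grey circles) and VPA-treated (magenta squares) library for 17 of the 19 tested receptor genes, with bars at the means of 3 libraries and gene labels coloured by receptor class. The groups are separate for 16 genes and overlap for GRM2.

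GABBR1 had the highest level per length in both conditions, and the order below it changed. In normalized counts per kb of the canonical transcript, its mean level was 153 in untreated and 281 in VPA-treated cells. In untreated cells it was followed by GRID1 at 29.0 and GRIN2D at 28.9 per kb, which did not differ beyond their spread, and by GABRD at 21.6. Then came GABBR2, GRIK4 and GRIK5 with levels of 9.56, 8.97 and 8.56 per kb. In VPA-treated cells GABRD held the second place at 70.4 per kb, ahead of GRID1 at 45.2, GRIN2D at 35.4, GRIK4 at 28.1 and GABBR2 at 20.5. All other members lay at or below 12.5 per kb.

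Kainate receptors are tetramers in which GRIK1, GRIK2 and GRIK3 can form channels on their own, while GRIK4 and GRIK5, the high-affinity subunits, need one of these as a partner. GRIK2, on chromosome 6 from 101393708 to 102070083, had 9.32, 11.5 and 8.40 normalized counts without VPA and 70.0, 51.1 and 50.7 with it. Its log2 fold change was 2.54 with a standard error of 0.25 (adjusted p = 1.17e-08, edgeR). GRIK3, on chromosome 1 from 36795527 to 37034515, had 2.07, 6.28 and 2.10 against 29.7, 31.8 and 32.6 normalized counts. The VPA-treated libraries were close together and far above the untreated ones, with a log2 fold change of 3.13 ± 0.35 (SE, adjusted p = 1.12e-07). Leaving out a library gave 2.86 (without untreated replicate 1) to 3.83 (without untreated replicate 2). GRIK4, on chromosome 11 from 120511748 to 120988906, was the best counted of the raised kainate genes, with 54.9, 52.3 and 49.3 against 164, 164 and 163 normalized counts. This gave a log2 fold change of 1.64 ± 0.12 (SE, adjusted p = 1.08e-10). GRIK5 had 46.6, 39.8 and 29.4 against 58.5, 53.0 and 57.4 normalized counts, so that the groups were separate but close. Its log2 fold change of 0.54 ± 0.18 passed the adjusted p (0.0109, edgeR) without reaching the fold change threshold, and DESeq2 gave an adjusted p of 0.109. GRIK1 had 2 counts over the 6 libraries, both in VPA-treated cells. On the scale of normalized counts per kb, GRIK4 and GRIK5 together made up 85.2% to 90.0% of the kainate subunit level in untreated and 69.6% to 73.8% in VPA-treated libraries.

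NMDA receptors require GRIN1, which binds the co-agonist glycine or D-serine, together with GRIN2 subunits, which bind glutamate. GRIN1, on chromosome 9 from 137139154 to 137168756, had 14.5, 8.37 and 1.05 normalized counts in untreated and 41.2, 31.8 and 43.1 in VPA-treated libraries. Its untreated libraries were widely spread, yet all lay below the VPA-treated ones. The log2 fold change was 2.26 ± 0.36 (SE, adjusted p = 2.23e-05, edgeR). When a library was left out it ranged from 1.74 (without untreated replicate 3) to 3.0 (without untreated replicate 1). GRIN2D, the most abundant GRIN2 gene here, had 158, 159 and 160 against 217, 181 and 188 normalized counts. This was a log2 fold change of 0.29 ± 0.10 (SE, adjusted p = 0.0113), with an adjusted p of 0.110 in DESeq2. GRIN2C had 21.7, 12.6 and 16.8 against 44.1, 39.5 and 44 normalized counts, a log2 fold change of 1.31 ± 0.22 (SE, adjusted p = 2.64e-05), but it was not called by glmTreat, which tests for a change beyond the fold threshold (adjusted p = 0.307). GRIN3B, a glycine-binding subunit, had 5.18, 7.33 and 3.15 against 19.2, 13.5 and 16.3 normalized counts, a log2 fold change of 1.62 ± 0.37 (SE, adjusted p = 0.000718, and 0.197 by glmTreat), and TMEM259 overlaps 2.59% of its transcript on the opposite strand. GRIN2A and GRIN2B, the main GRIN2 genes of the forebrain, had 3 and 9 counts over the 6 libraries. GRIN2B had no count in untreated cells and 2, 6 and 1 with VPA, so that a single library held most of them, and DESeq2 did not call it (adjusted p = 0.0651). Per kb, the level of GRIN1 was 9.78%, 6.01% and 0.727% of the summed GRIN2 level in untreated libraries and 18.9%, 17.1% and 22.2% in VPA-treated libraries. The level of the obligatory subunit thus remained below the summed GRIN2 level in all 6 libraries.

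The AMPA receptor genes outside chromosome X had hardly any counts, and nothing can be read about GRIA3, which lies on that chromosome. GRIA2, whose edited subunit keeps AMPA receptors impermeable to calcium, had 1, 0 and 2 counts in untreated and 10, 7 and 5 in VPA-treated libraries. It fell below the filter, and was called up-regulated without a filter, as were 9.56% of all genes so tested, with a log2 fold change of 2.59 ± 0.75 (SE, adjusted p = 0.00182, edgeR) and with DESeq2 at 2.73 (adjusted p = 0.0374). GRIA1 and GRIA4 had 1 count each, both in VPA-treated cells.

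Delta receptors are relatives of the ionotropic receptors that organise synapses by binding cerebellins. GRID1, on chromosome 10, was the ionotropic member with the most counts, at 170, 196 and 170 normalized counts in untreated and 287, 289 and 259 in VPA-treated libraries. The log2 fold change of 0.64 ± 0.09 (SE, adjusted p = 2.15e-06, edgeR) did not reach the fold change threshold. An antisense gene overlaps 3.18% of the GRID1 transcript. CBLN1, which encodes a cerebellin, rose by a log2 fold change of 1.59 (SE 0.23, adjusted p = 3.73e-06). CBLN3, the other tested cerebellin gene, had a log2 fold change of -0.59 (SE 0.25, adjusted p = 0.0502), with every VPA-treated library below every untreated one, and CBLN2 and CBLN4 were at 0.

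The largest log2 fold changes among the tested members were those of the metabotropic receptor genes GRM3 and GRM4. GRM3, a group II receptor that lowers cAMP, lies on chromosome 7 from 86643909 to 86864879. It had 2.07, 0 and 4.2 normalized counts in untreated and 19.2, 28.9 and 29.7 in VPA-treated libraries, and the groups were far apart. Its log2 fold change was 3.56 ± 0.47 (SE, adjusted p = 9.49e-07, edgeR). Leaving out a library gave 2.99 (without untreated replicate 2) to 4.48 (without untreated replicate 3). The antisense gene GRM3-AS1 overlaps 19.8% of the GRM3 transcript. The study names a strand-specific library protocol, but the strand setting of the counting is not stated. GRM4, a group III receptor found at presynaptic terminals, lies on chromosome 6 from 34018643 to 34155622. It had 3.11, 2.09 and 6.30 against 47.9, 37.6 and 40.2 normalized counts, a log2 fold change of 3.41 ± 0.32 (SE, adjusted p = 8.66e-09). GRM8, of the same group, had 7.25, 3.14 and 6.30 against 19.2, 22.2 and 23.9, a log2 fold change of 1.94 ± 0.34 (SE, adjusted p = 3.8e-05), and an antisense gene overlaps 4.97% of its transcript.

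GRM2 stood apart from its group II partner GRM3. It had 14.5, 11.5 and 11.5 normalized counts in untreated and 8.62, 14.4 and 17.2 in VPA-treated libraries, so that the groups overlapped. This was a log2 fold change of 0.10 ± 0.32 (SE, adjusted p = 0.803, edgeR). GRM5, a group I receptor that acts through phospholipase C, had 2 counts without and 19 with VPA and was called up-regulated without a filter (log2 fold change 2.90, adjusted p = 0.00214, edgeR) and with DESeq2 (adjusted p = 0.0440). GRM5-AS1, listed at 0 in every library, overlaps 53.8% of its transcript. GRM7, of group III, had 1 count in all, too few to compare.

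**Figure D3:**
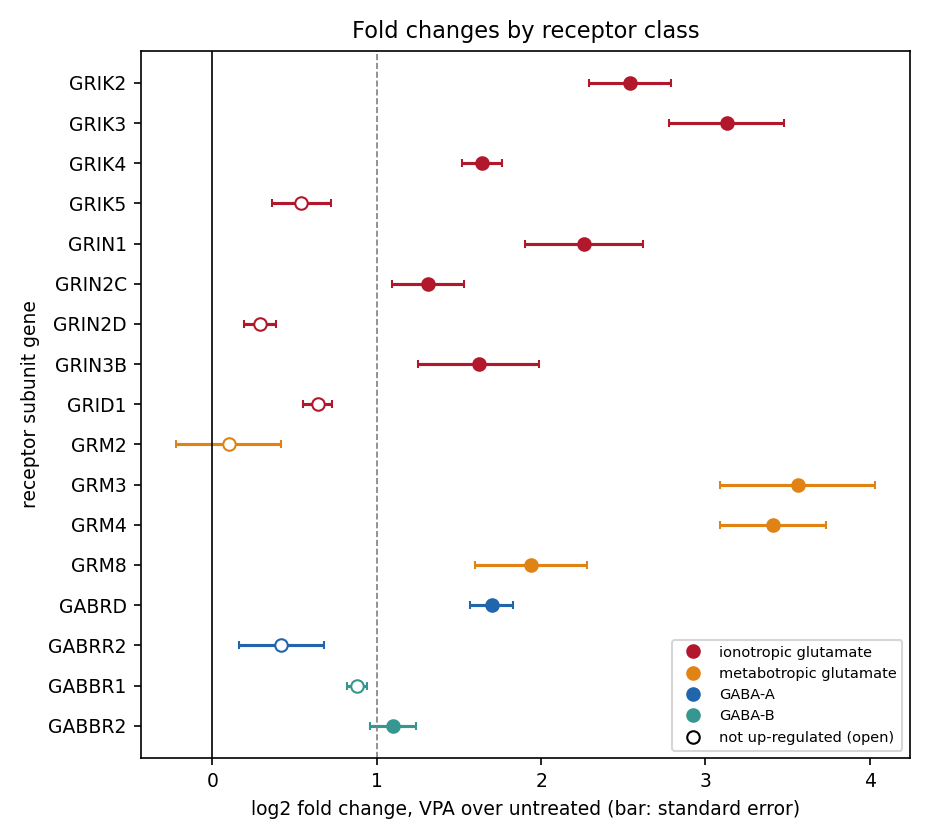
Log2 fold change of VPA-treated over untreated cells with its standard error for 17 of the 19 tested receptor genes, coloured by receptor class, with filled points for the 11 up-regulated genes and a dashed line at a log2 fold change of 1. GRM3, GRM4 and GRIK3 have the largest values, at 3.56, 3.41 and 3.13, and GRM2 and GRIN2D the smallest, at 0.10 and 0.29.

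Among the GABA-A genes a single member was well counted. GABRD encodes the delta subunit of extrasynaptic receptors that respond to ambient GABA, and it lies on chromosome 1 from 2019345 to 2030758. It had 38.3, 45.0 and 40.9 normalized counts in untreated and 132, 137 and 135 in VPA-treated libraries, tight groups without overlap. The log2 fold change was 1.70 ± 0.13 (SE, adjusted p = 3.34e-10, edgeR). GABRR2, a rho subunit known from the retina, had 21.7, 22.0 and 11.5 against 24.9, 22.2 and 26.8, a log2 fold change of 0.42 ± 0.26 (SE, adjusted p = 0.168).

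The alpha and gamma subunits, which with beta subunits form the usual synaptic GABA-A receptor, had few counts or none where described here. GABRA2, GABRA4, GABRA5, GABRA6 and GABRG1 were at 0, GABRG3 had 1 count, and GABRA3 lies on chromosome X. Many GABA-A genes lie in clusters. The cluster on chromosome 4 from 46035769 to 47426447 had 0 counts in the 3 untreated and 8 in the 3 VPA-treated libraries, all on GABRB1 (1, 4 and 3 counts), too few for a fold change. GABRD alone, outside the clusters, had 119 and 421 counts.

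The GABA-B receptor is an obligatory pair of GABBR1, which binds GABA, and GABBR2, which couples to the G protein and brings GABBR1 to the cell surface. GABBR1, on chromosome 6 from 29602238 to 29633183, had more counts than all other members together in 2 of the 3 untreated libraries, with 762, 609 and 699 normalized counts, and had 1292, 1227 and 1296 in VPA-treated libraries. Its log2 fold change was 0.88 ± 0.06 (SE, adjusted p = 1.2e-10, edgeR), just under the fold change threshold, and 1.01 when the libraries were scaled to their totals. GABBR2, on chromosome 9 from 98288109 to 98708935, had 50.7, 47.1 and 59.8 against 97.7, 119 and 122 normalized counts, a log2 fold change of 1.10 ± 0.14 (SE, adjusted p = 7.91e-07, and 0.877 by glmTreat). Per kb, GABBR2 stood at 5.48% to 7.04% of the GABBR1 level in untreated and 6.23% to 8.01% in VPA-treated libraries, and these ranges overlapped.

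The balance between related genes was compared within 7 pairs of tested members, chosen after their values were seen, of which 6 are given here. The measure was the log2 ratio of their normalized counts with 0.5 added. In 4 of these 6 the ratios of the 2 conditions did not overlap. GRIN2C over GRIN2D went from -3.22 ± 0.39 to -2.18 ± 0.10 and GRIK4 over GRIK5 from 0.45 ± 0.26 to 1.53 ± 0.08 (SD, n = 3 each). In these pairs the gene with the smaller log2 fold change was GRIN2D or GRIK5. GRM3 over GRM2 went from -2.83 ± 1.63 to 0.95 ± 0.17 and GRM4 over GRM8 from -0.53 ± 0.55 to 0.93 ± 0.32, so that both mean ratios changed sign. GRIK3 over GRIK2 and GABBR2 over GABBR1 overlapped between the conditions, with differences of 0.67 and 0.21. The exact permutation test, two-sided, gave p = 0.1 for the 4 separate pairs, the smallest value that 3 libraries against 3 allow, and 0.14 after Benjamini-Hochberg adjustment over all 7 pairs, so that a shift of balance is not established by this test.

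**Figure D4:**
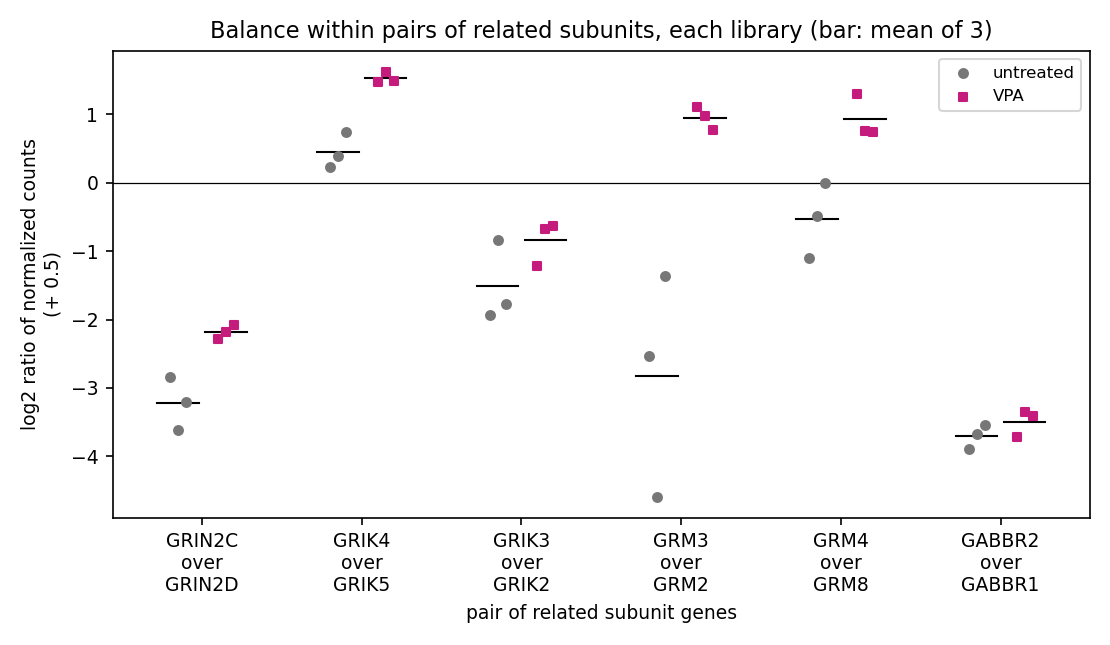
Log2 ratio of normalized counts (with 0.5 added) within 6 pairs of related receptor genes in each untreated (grey circles) and VPA-treated (magenta squares) library, with bars at the means of 3 libraries and a line at a ratio of equal counts. The conditions are separate in 4 pairs, and in GRM3 over GRM2 and GRM4 over GRM8 the mean crosses the line.

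Receptors reach and stay at synapses with the help of auxiliary subunits and scaffold proteins, and 74 such partner genes were listed by role. Of the 56 tested, 17 were up-regulated and 0 down-regulated by edgeR, beside 12.0% and 0.503% of all tested genes. The up-regulated share of all tested genes was 29.4% at a mean under 50 normalized counts, 24.3% between 50 and 200, and 5.78% between 200 and 1000. The tested partners lie in each of these ranges and above them. None was down-regulated either at an unadjusted p under 0.05 with a fall of the same size, or in DESeq2. At the adjusted p alone 38 were higher and 7 lower, beside 32.9% and 30.0% of all tested genes, and the median log2 fold change was 0.49. The AMPA and kainate auxiliary subunits had 6 of 14 tested genes up-regulated. CACNG4, CACNG5 and CACNG7, transmembrane AMPA receptor regulatory proteins, had log2 fold changes of 4.08, 2.95 and 4.95 (SE 0.20, 0.14 and 0.37). CACNG4 had 12.4, 8.37 and 9.45 normalized counts in untreated and 144, 185 and 190 in VPA-treated libraries. CACNG5 had 22.8, 25.1 and 22.0 against 177, 187 and 180. These AMPA receptor partners were thus better counted in VPA-treated cells than any AMPA receptor gene outside chromosome X. SHISA7, which binds AMPA and GABA-A receptors, rose by 3.54, GSG1L by 5.17 from 1 untreated count in all, and PRRT2 by 1.43 on the log2 scale. NETO2, a kainate receptor auxiliary subunit and the gene of the list with the most counts, was lower, with 1626, 1707 and 1752 normalized counts without and 1253, 1281 and 1318 with VPA (log2 fold change -0.40, SE 0.05, adjusted p = 1.68e-07), and NETO1 was at 0.

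Beside 12.0% of all tested genes, 6 of 20 tested glutamate receptor scaffold genes were up-regulated. Among them were the postsynaptic scaffold genes SHANK1 and SHANK2 with log2 fold changes of 2.95 and 2.50, DLGAP3 with 3.14, GRIP2 with 2.73 and the kinase gene CAMK2B with 1.25. DLG4, the gene for PSD-95, had a log2 fold change of 0.52 ± 0.10 (SE, adjusted p = 0.000156), below the fold change threshold. HOMER1, PICK1 and NSF, which act in receptor trafficking and anchoring, were the 3 lower genes of the list, at -0.19, -0.23 and -0.24 on the log2 scale. Of the genes that anchor, traffic or assemble GABA-A receptors 4 of 17 were up-regulated, beside the same 12.0%. The 4 were IQSEC3 at 2.18, PLCL1 and MAGI2 at 1.21 each and HAP1 at 1.00. At the adjusted p alone 10 of the 17 were higher and 3 lower, and their median log2 fold change was 0.24. Gephyrin (GPHN), the main scaffold of inhibitory synapses, had a log2 fold change of 0.16 ± 0.06 (SE, adjusted p = 0.0317). Of the tested GABA-B auxiliary genes 0 of 2 were up-regulated, and SRR, which encodes the enzyme that makes D-serine, was higher at the adjusted p alone.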

How the data were processed

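RNA from 3 untreated and 3 VPA-treated HEK293T libraries was sequenced by the study. The deposited values are raw read counts per gene, made by the authors after read cleaning with SOAPnuke, alignment to hg38 and counting. The submitters' processing notes name STAR 2.7.10b and HTSeq 2.0.1, and the study's methods name another HTSeq release. The annotation and the strand setting are not given in the sources used here. Summary lines (no feature 6.8% to 7.69%, ambiguous 1.97% to 2.1%, not unique 2.81% to 2.92% of reads) were left out.

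Counts were fitted with edgeR 4.0.16 in R 4.3.3 (TMM scaling, filterByExpr with a minimum of 10 counts, robust quasi-likelihood test). Benjamini-Hochberg adjustment ran over 15298 of 47470 genes. Calls required both the adjusted p (threshold 0.05) and the log2 fold change (threshold 1, either sign). Normalized counts are scaled by TMM to the mean library, and standard errors were derived from the test statistic. The test was checked on simulated counts. Lengths are canonical transcripts of GENCODE 44, and gene coordinates and promoters are from RefSeq (GRCh38.p14). DESeq2 1.42.0, other scalings, filters, a prior count of 2, a fold change threshold inside the test (glmTreat), a replicate block and leaving out each library were alternatives.

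Members were named by the symbol rule, and a few, with results that need them, are not reported here, although counts over the members include them. The members, gene lists and pairs were chosen with earlier results of these data known. The labels give no batch.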

Additional observations from a re-analysis of the deposited data

How the results depend on the processing

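The 13 up-regulated members became 5 where each library had to hold 10 counts, 9 with glmTreat (5 ionotropic in place of 7), 17 with no filter and 12 to 13 when any library was left out. Over all genes, glmTreat found 1149 of 15298 higher, and without a filter 9.56% were up-regulated. Where 10 counts were required in every library, 9 members were higher at the adjusted p alone, beside 4489 of all 13882 genes so tested. Under that filter 3 ionotropic and 0 metabotropic glutamate receptor genes were up-regulated, and fewer members were tested. Leaving out a library gave 15 to 17 members higher. The up-regulated GABA-A genes were 1 with DESeq2, with a mean of at least 10 counts, with 10 counts in every library, with glmTreat and with a prior count of 2, and 1 to 2 when a library was left out. The up-regulated GABA-B genes were 2 with scaling to library totals and 0 with glmTreat. No member was called down-regulated under any alternative. Of the comparisons of 19 members with the alternatives other than glmTreat 268 kept direction and the call or its absence, 5 lost the call and 1 gained it (GABBR1). Some that stayed uncalled still crossed the adjusted p. In edgeR GRIK5 had 0.0839 without untreated replicate 3 and GRIN2D 0.0761 without VPA replicate 1. In DESeq2 these genes had adjusted p of 0.109 and 0.11. GRM2, which was not called, ranged from -0.12 (without VPA replicate 3, edgeR adjusted p = 0.808) to 0.34 when a library was left out. Scaling to library totals shifted the median of all tested genes to a log2 fold change of 0.14 and gave 6713 higher and 2372 lower genes in place of 5037 and 4591. Libraries with the same replicate number had correlations of 0.32, 0.089 and 0.24 of their deviations over 12196 genes, and each library correlated best with its own number. The labels do not say that the numbers pair the libraries, and the main fit did not pair them. With the replicate block 13 members were up-regulated and 17 were higher. Most members have under 50 normalized counts, which limits the precision of their fold changes, and nothing can be read about genes on chromosome X.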
